A study of Mus musculus with 6 samples.

Results

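Integrins are the adhesion receptors of the cell surface. Each is a heterodimer of an alpha and a beta chain, and the pairing sets which ligand is bound. The set described here comprised 10 integrin genes of dendritic cells and other leukocytes, chosen by name: 6 alpha chains (Itgal, Itgam, Itgax, Itga4, Itgae and Itgav) and 4 beta chains (Itgb1, Itgb2, Itgb7 and Itgb8). All 10 matched an Ensembl ID in the files and all 10 passed the filter on low counts, among 21849 genes tested and 56748 Ensembl IDs listed.

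The libraries were polyA RNA-seq of bone marrow-derived dendritic cells (BMDCs), 3 from WT and 3 from Nfkb2-/- mice. Nfkb2 encodes p100, the precursor of the NF-κB subunit p52, which pairs with RelB in the noncanonical NF-κB pathway. The knockout was global, so that every cell of the marrow and of the culture lacked the gene, and WT mice were C57BL/6. Marrow of both genotypes was grown for 5 days in 20 ng/mL GM-CSF and for 4 more days in GM-CSF with 10 ng/mL IL-4, 9 days in all, and was taken with no stimulation, at 0 h. The study's methods describe the non-adherent cells as the harvest, name CD11c (the product of Itgax) as a surface marker by which differentiation was checked, and mention no sorting for this assay. They call the replicates independent and biological, whereas the labels give only a replicate number, and animal ages are not given in the sources used here. Differences in a bulk culture can come from fewer cells of a type or from less RNA per cell, and these cannot be told apart here.

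Among the 10 genes, CD11c, CD11a and CD11b (encoded by Itgax, Itgal and Itgam) each pair with the β2 chain (Itgb2) and serve leukocyte adhesion. The pairs with CD11b or CD11c also serve uptake of complement-coated particles. The α4 chain (Itga4) pairs with β1 to bind VCAM-1 and fibronectin, or with β7 to bind MAdCAM-1, the addressin of gut venules. The αE chain (Itgae, CD103) pairs only with β7, binds E-cadherin and marks a subset of intestinal dendritic cells, while αvβ8 (Itgav with Itgb8) releases active TGF-β from its latent form.

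The libraries held 29863927 to 55623068 counts. Nfkb2 itself, given first as the check of the labels, had 215, 154 and 355 CPM (counts scaled for library size with edgeR's TMM factors) in WT replicates 1 to 3 and 44.8, 32.3 and 32.7 CPM in the Nfkb2-/- replicates (log2 fold change −2.72, SE 0.33, edgeR adjusted p = 0.0307). Nfkb2-/- replicate 1 had counts on 47952 genes against 27692 to 33841 in the other libraries. WT replicate 3 was the lowest WT library for all 11 macrophage markers listed and the highest WT library for all 10 markers of mature dendritic cells. Listed genes whose call turned on this library are given with and without it, as are some whose size did.

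A gene was called differentially expressed at a Benjamini-Hochberg adjusted p under 0.05 over all genes tested and a fold change over 1.2 in edgeR's quasi-likelihood test. Of the 10 integrin genes 2 were called, Itgax higher and Itga4 lower in Nfkb2-/- BMDCs, where 1.14% of all genes tested were called, 0.453% as higher and 0.682% as lower. Among genes averaging 100 CPM or more, 1.9% were called. An unadjusted p under 0.05 in this test was found for 17.1% of all genes tested. For 5 of the 10 the 3 WT and 3 Nfkb2-/- libraries did not overlap, 4 higher (Itgax, Itgal, Itgae, Itgb2) and 1 lower (Itga4) in the knockout. This held for 24.7% of all genes tested and 32.9% of those averaging 5 CPM or more, as 9 of the 10 did. The median log2 fold change was 0.42 over the 10 genes, 0.08 over all genes tested and −0.02 over those averaging 5 CPM or more.

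**Figure D1:**
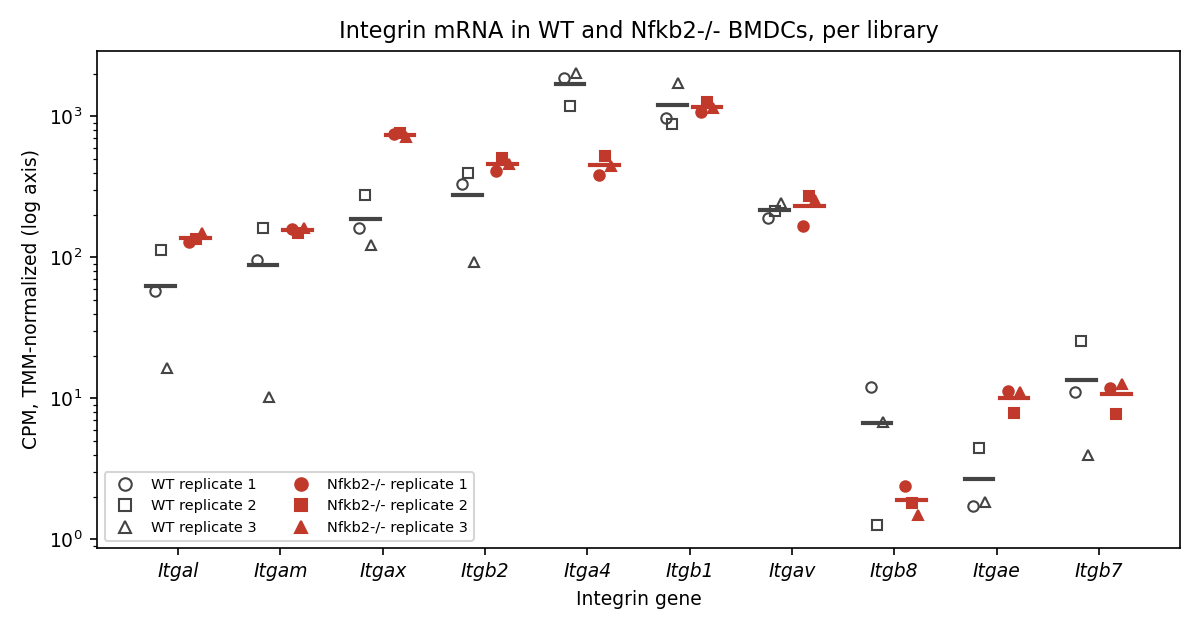
TMM-normalized CPM on a log axis of the 10 integrin genes in each library, with open grey symbols for WT, filled red symbols for Nfkb2-/-, symbol shape for the replicate number and a bar for the mean of 3. The 3 Nfkb2-/- values of Itgax lie between 716 and 769 CPM above WT values of 123 to 277, and those of Itga4 between 385 and 523 CPM below WT values of 1184 to 2021.

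To show where these genes begin, the RefSeq sequence of the 250 bases before the start site is given for the 2 differentially expressed genes and for Itgam, the neighbour of Itgax (build GRCm38.p6, all on the plus strand, 5′ to 3′). Itga4 lies at chr2:79255176-79255425, Itgam at chr7:128062390-128062639 and Itgax at chr7:128129300-128129549. Capitals mark a match to GAGGAA, a core of PU.1 sites, or to TGTGGT, a core of Runx sites, on either strand.
Itga4: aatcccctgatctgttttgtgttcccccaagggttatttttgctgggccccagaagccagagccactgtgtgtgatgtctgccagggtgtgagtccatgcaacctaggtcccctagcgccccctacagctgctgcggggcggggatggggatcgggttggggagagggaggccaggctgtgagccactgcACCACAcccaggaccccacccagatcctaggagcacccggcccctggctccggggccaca
Itgam: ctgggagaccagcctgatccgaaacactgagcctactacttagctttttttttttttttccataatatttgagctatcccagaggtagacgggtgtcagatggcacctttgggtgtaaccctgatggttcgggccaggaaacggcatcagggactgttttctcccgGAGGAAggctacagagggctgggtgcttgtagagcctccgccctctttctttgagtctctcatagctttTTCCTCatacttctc
Itgax: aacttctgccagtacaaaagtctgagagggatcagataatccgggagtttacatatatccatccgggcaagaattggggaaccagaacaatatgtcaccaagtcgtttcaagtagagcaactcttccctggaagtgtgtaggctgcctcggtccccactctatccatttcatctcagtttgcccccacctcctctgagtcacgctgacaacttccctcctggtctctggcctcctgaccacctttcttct

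Of the 10 genes 7 had a sequence in the promoter table, and Itgal, Itgae and Itgb2 had none. The Itga4 window held 1 match to TGTGGT, read as its reverse complement and beginning 60 bases before the start. The Itgam window held 2 matches to GAGGAA, and the Itgax window held none of these motifs. Itgav held 2 matches to GAGGAA and Itgb1 held 1. None of the 7 windows held a κB motif or a direct repeat of the retinoic acid receptor type, and no matches overlapped each other. Across 32851 promoter windows of the same length, 23.3% held GAGGAA, 14% TGTGGT, 3.9% the κB motif and 0.0883% the direct repeat. The matches describe letters in a window only.

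Itgax rose in Nfkb2-/- BMDCs. Itgax mRNA, for the CD11c chain, measured 160, 277 and 123 CPM in WT replicates 1 to 3 and 745, 769 and 716 CPM in the Nfkb2-/- replicates. The genotypes did not overlap, and the knockout libraries lay within 1.07-fold of each other. The means were 187 ± 80.1 CPM in WT and 743 ± 26.6 CPM in Nfkb2-/- BMDCs (SD, n = 3 each). The log2 fold change was 1.99 (SE 0.30, edgeR adjusted p = 0.0414), a 3.98-fold difference. Counts behind these values ran from 3585 to 38256 per library. The gene lies at chr7:128129547-128150657 on the plus strand (GRCm38, GENCODE M21), and its exons overlap no other annotated gene of the files.

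Itga4 fell in Nfkb2-/- BMDCs. It had the smallest p of the 10, and α4 is shared by the VCAM-1 and MAdCAM-1 receptors. The WT libraries had 1883, 1184 and 2021 CPM and the Nfkb2-/- libraries 385, 523 and 443 CPM. The lowest WT library was thus above the highest knockout library. The mean was 1696 ± 449 CPM in WT and 450 ± 69.4 CPM in Nfkb2-/- BMDCs (SD, n = 3 each). On the log2 scale the change was −1.91 (SE 0.26, edgeR adjusted p = 0.0332), so that WT cells held 3.77-fold more. Itga4 spans chr2:79255426-79333123 on the plus strand. Its exons share 1124 bases with Cerkl on the opposite strand, a gene with 86 to 203 counts per library against 13036 to 79398 for Itga4.

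Set against each other within a library, Itga4 exceeded Itgax in every WT library, with ratios of CPM of 11.7, 4.28 and 16.4. In the Nfkb2-/- libraries the ratio was 0.517, 0.681 and 0.618, and Itgax was the more abundant in all 3. The pair was chosen because both genes were called, in opposite directions, so this contrast follows from the calls. Per kilobase of exon Itga4 was also above Itgax in WT (84.7 to 144.6 against 25.7 to 57.6 CPM). In the knockout it was below Itgax on that scale as well (27.6 to 37.4 against 149 to 160 CPM).

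Both calls were lost in 4 of the 6 fits that left out 1 library. The 6 fits gave log2 fold changes of 1.77 to 2.39 for Itgax and of −2.12 to −1.77 for Itga4. The calls ended without WT replicate 1 (edgeR adjusted p = 0.202 for Itgax and 0.156 for Itga4), Nfkb2-/- replicate 1 (0.0900 and 0.0898), Nfkb2-/- replicate 2 (0.2 and 0.186) or Nfkb2-/- replicate 3 (0.169 for both), where edgeR called no gene of all those tested (2325 to 4088 genes had an unadjusted p under 0.05). Both calls held without WT replicate 3, the library with few macrophage transcripts, at 1.77 for Itgax (edgeR adjusted p = 0.0435) and −1.77 for Itga4 (0.0415), where 1.27% of all genes were called. They also held without WT replicate 2, at 2.39 for Itgax and −2.12 for Itga4 (edgeR adjusted p = 0.00707 for both), where 5.87% of all genes were called. Both were called as well with RLE scaling or total counts (1.09% and 1.13% of all genes called), with edgeR's filterByExpr or a minimum of 10 counts in every library (2.06% and 2.82%) and with no filter on low counts (3.5%).

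**Figure D2:**
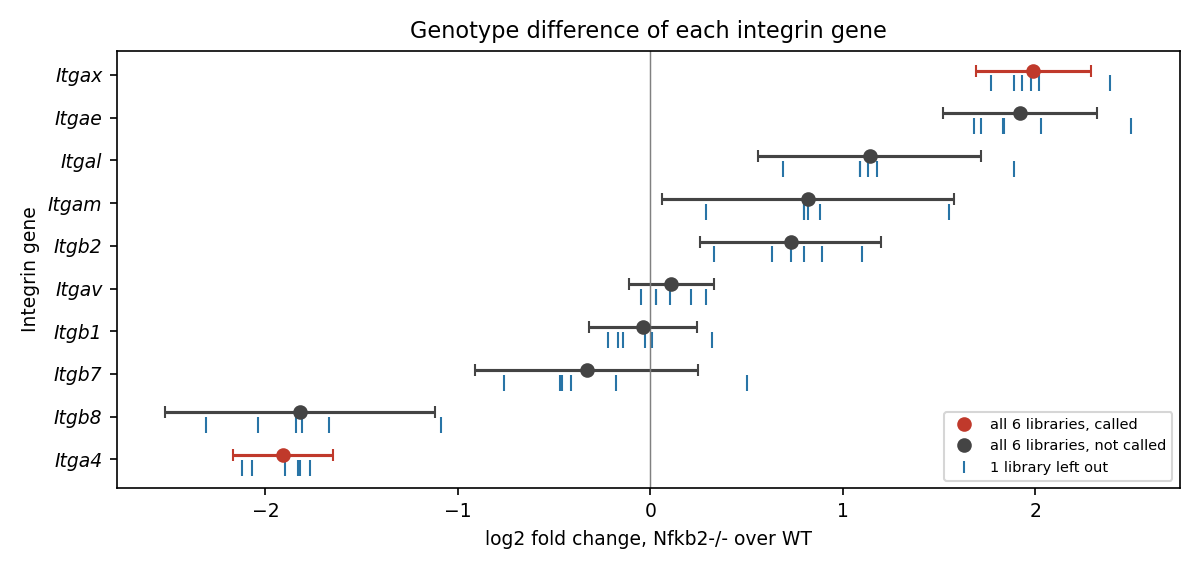
Log2 fold change of Nfkb2-/- over WT BMDCs for the 10 integrin genes, with points and standard error bars from edgeR on all 6 libraries (red where called) and blue ticks for the 6 fits that each leave out 1 library. Itgax at 1.99 and Itga4 at −1.91 are the called genes, and the ticks of Itgav, Itgb1 and Itgb7 fall on both sides of 0.

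The other chains of the β2 family were higher in Nfkb2-/- BMDCs on average, but none was called. Itgal, for the CD11a chain that binds ICAM-1, had 58.1, 113 and 16.3 CPM in WT and 129, 135 and 149 CPM in Nfkb2-/- libraries. The libraries did not overlap, yet the WT values spread over a 6.93-fold range and the log2 fold change of 1.14 had an SE of 0.58 (edgeR adjusted p = 0.376). Itgb2, the β2 chain itself, had 332, 400 and 93.2 CPM in WT and 410, 503 and 461 CPM in the knockout. These did not overlap either, and the log2 fold change was 0.73 (SE 0.47, edgeR adjusted p = 0.477).

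Itgam, for the CD11b chain, ran from 10.3 CPM in WT replicate 3 to 96.1 and 160 CPM in WT replicates 1 and 2, and its knockout values of 158, 150 and 162 CPM overlapped the latter. Its log2 fold change of 0.82 had an SE of 0.76 (edgeR adjusted p = 0.625). Itgam lies 11055 bp upstream of Itgax and shares 3450 exon bases on the same strand with Gm49368, a gene model listed at 5 to 47 counts per library against 298 to 8661 for Itgam. How reads in the shared exons were assigned is not given in the sources used here, so the Itgam values are uncertain.

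WT replicate 3 was the lowest WT library for 5 of the 10 genes, namely all 4 chains of the β2 family and Itgb7. This held for 39.6% of all genes tested. The summed level of the 11 macrophage markers was likewise lowest in WT replicate 3, with 1085, 1263 and 190 CPM in WT replicates 1 to 3. It was 727, 782 and 933 CPM in the Nfkb2-/- libraries. None of the 11 was called by edgeR or DESeq2, had an unadjusted p under 0.05 or was free of overlap. Csf1r had 37.2 CPM and Adgre1 20.3 CPM in WT replicate 3, against at least 115 and 107 CPM in every other library. The summed markers of mature dendritic cells moved the other way, at 18790 CPM in WT replicate 3 and 9797 to 12810 CPM elsewhere. Of these 10 markers 1 was called by edgeR, the chemokine gene Ccl17, higher in the knockout (log2 fold change 2.92, adjusted p = 0.0307), while 7 had an unadjusted p under 0.05 and 5 did not overlap. Fscn1 and Cd83, at −1.49 and −1.12, were called by DESeq2 and not by edgeR (adjusted p = 0.0903 and 0.150). Without WT replicate 3 the log2 fold changes shrank to 0.69 for Itgal, 0.29 for Itgam and 0.33 for Itgb2, and that of Itgax was 1.77. The part of these cell types in the integrin values was not tested.

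**Figure D3:**
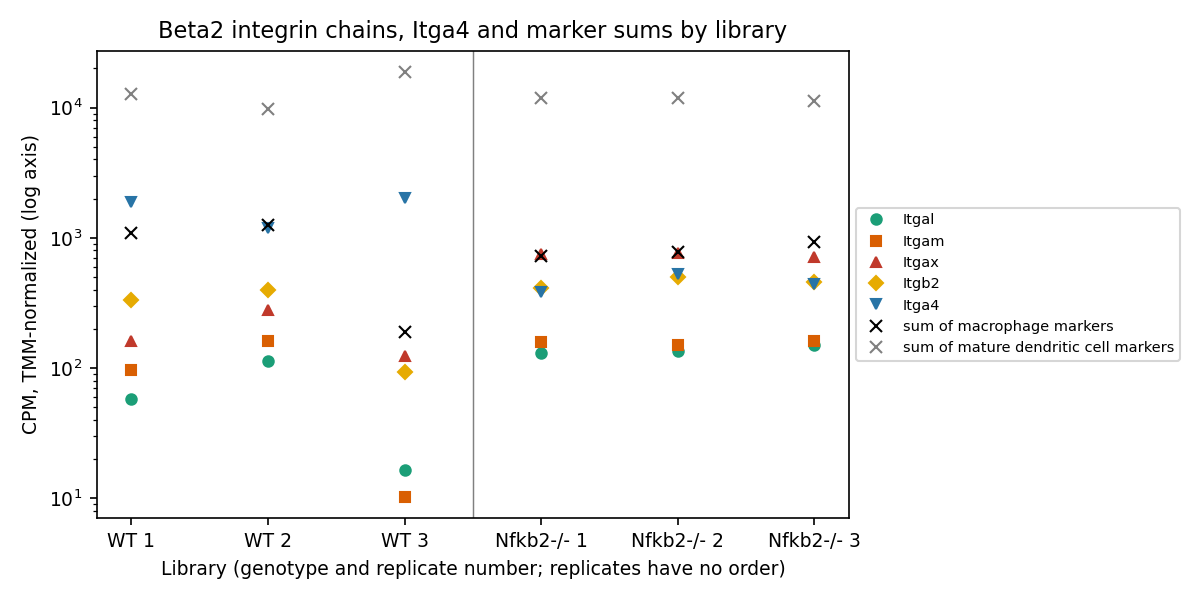
TMM-normalized CPM on a log axis of the β2 family chains and Itga4 in each library, with crosses for the summed macrophage and mature dendritic cell markers. In WT replicate 3 Itgal, Itgam and Itgb2 stand at 16.3, 10.3 and 93.2 CPM beside a macrophage sum of 190 CPM, while Itgax at 123 CPM and Itga4 at 2021 CPM depart less from the other WT libraries.

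The markers of the other cell types were summed in the same way. The 10 listed markers of dendritic cells were all tested and were expressed in all libraries. They summed to 5197 to 9393 CPM in WT and 6661 to 7794 CPM in Nfkb2-/- libraries. None was called by edgeR, 2 had an unadjusted p under 0.05 and 1 was called by DESeq2. Cd74 and H2-Aa were the largest, with WT means of 2671 and 1633 CPM, and Flt3 averaged 15.2 CPM in WT. The study lists Cd74 among its macrophage signature genes as well. The summed neutrophil markers had 83.7 to 227 CPM in WT and 117 to 125 CPM in the knockout, and of 7 tested 2 had an unadjusted p under 0.05 and were called by DESeq2 (Ngp at −1.81 and Ltf at −1.60). EdgeR called none of the 7 on all 6 libraries and both of these without WT replicate 3. The lymphocyte markers summed to at most 4.67 CPM, with Cd3d, Ms4a1, Klrb1c and Ncr1 too low to be tested. Of the cDC1 markers, summed at 820 to 2179 CPM in WT and 578 to 625 CPM in Nfkb2-/- libraries without overlap, edgeR called none, while 3 of 7 had an unadjusted p under 0.05 and DESeq2 called 3. The sum was carried by Irf8 and Ly75, lower at −1.94 and −1.17 on the log2 scale, whereas Clec9a was higher in every knockout library at 1.40, and the median of the 7 was 0.29. Of 7 mast cell and basophil markers tested 1 was called, Cpa3, lower in the knockout, at sums of 46.6 to 57 CPM in WT and 50.9 to 58.2 CPM in the knockout. Stromal markers reached at most 54.3 CPM and platelet markers at most 10.9 CPM in sum.

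Itgae and its partner Itgb7 were expressed at low levels. Itgae, for CD103, measured 1.73, 4.46 and 1.86 CPM in WT and 11.3, 7.94 and 11.2 CPM in Nfkb2-/- libraries. Every knockout library was above every WT library. The log2 fold change of 1.92 (SE 0.40) was of the size of that of Itgax but missed the threshold (edgeR adjusted p = 0.0735), with 54 to 145 counts per WT library behind it. DESeq2 called it (adjusted p = 0.000383) at a threshold that 8.65% of all genes passed, and limma voom did so as well (0.0359), where 2.23% passed. Without WT replicate 2, the highest WT library, it was called by edgeR at 2.50 (adjusted p = 0.00864), in the fit that called 5.87% of all genes.

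Itgb7, the partner of both αE and α4, had 11.1, 25.6 and 3.99 CPM in WT and 11.8, 7.75 and 12.7 CPM in the knockout. The knockout libraries lay inside the WT range, and the log2 fold change of −0.33 had an SE of 0.58 (edgeR adjusted p = 0.807). It turned to 0.50 without WT replicate 2 and was −0.76 without WT replicate 3.

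Neither αv nor the β1 and β8 chains were called. Itgb1, the most widely shared beta chain, had 979, 888 and 1730 CPM in WT and 1069, 1275 and 1151 CPM in Nfkb2-/- libraries, and all knockout values fell inside the WT range (log2 fold change −0.04, SE 0.28, edgeR adjusted p = 0.956). Its direction turned to 0.07 when libraries were scaled by total counts alone and to 0.32 without WT replicate 3, its highest library. Itgav had 191, 213 and 243 CPM in WT and 167, 273 and 257 CPM in the knockout, at 0.11 (SE 0.22, edgeR adjusted p = 0.838). Its knockout libraries lay on both sides of the WT range. Its exons share 634 bases with Gm13684 on the opposite strand, listed at 100 to 246 counts per library against 5646 to 13735 for Itgav.

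Itgb8, the beta chain of the TGF-β activating αvβ8, had 12, 1.26 and 6.85 CPM in WT and 2.39, 1.81 and 1.50 CPM in Nfkb2-/- libraries. WT replicate 2 was below all 3 knockout libraries, so the genotypes overlapped. The log2 fold change of −1.82 had an SE of 0.70 (edgeR adjusted p = 0.241), and without WT replicate 2 it was −2.31 and called (0.0184).

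The spread between replicates itself differed by genotype for most of the set. The coefficient of variation was larger in WT for 9 of the 10 genes, where this held for 50.3% of all genes tested and 60.6% of those averaging 5 CPM or more. It was 42.8% in WT and 3.57% in Nfkb2-/- libraries for Itgax, 84.7% and 4.04% for Itgam and 77.6% and 7.51% for Itgal. Itgav was the exception at 12% and 24.6%. WT replicate 3 enters each of the WT values.

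Levels of different genes were compared per kilobase of exon, as TMM-normalized CPM divided by the length of the union of a gene's exons. In WT BMDCs the order was Itgb1 with 294 CPM per kilobase, Itga4 with 121, Itgb2 with 90.1, Itgax with 38.9, Itgav with 20.1, Itgam with 17.7, Itgal with 9.51, Itgb7 with 4.89, Itgb8 with 0.605 and Itgae with 0.586 CPM per kilobase. Only Itgb1 and Itga4, Itgax and Itgav, and Itgb7 and Itgb8 were neighbours whose WT libraries did not overlap on this scale. In Nfkb2-/- BMDCs the level was 286 CPM per kilobase for Itgb1, 155 for Itgax, 150 for Itgb2, 32.2 for Itga4, 31.2 for Itgam, 21.6 for Itgav, 21 for Itgal, 3.88 for Itgb7, 2.21 for Itgae and 0.172 CPM per kilobase for Itgb8. Here Itgax and Itgb2, Itga4 and Itgam, and Itgav and Itgal were the neighbours that overlapped. With the length of the longest transcript in its place the order was the same and Itgav was 1.52-fold higher, but which neighbours overlapped was not the same. In the knockout Itgax then stood clear of Itgb2 (177 to 190 against 138 to 170 CPM per kilobase) and Itga4 of Itgam (39.4 to 53.6 against 32 to 34.6), while Itgam and Itgav, Itgb7 and Itgae and, in WT, Itgax and Itgav overlapped. By rank Itgax went from 4 to 2 and Itga4 from 2 to 4, and the ends of the order were Itgb1 at the top in both genotypes and Itgae (WT) or Itgb8 (Nfkb2-/-) at the bottom.

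Since an alpha chain reaches the surface with its beta chain, the log2 ratio of partner mRNAs was computed in each library for 8 known pairs. The difference of genotype means was tested by a two-sided exact permutation test, which with 3 libraries against 3 cannot go below p = 0.1. The Itga4 to Itgb1 ratio was 0.94, 0.41 and 0.22 in WT and −1.47, −1.28 and −1.38 in Nfkb2-/- libraries. The genotypes did not overlap, with a difference of −1.91 (exact permutation p = 0.1, 0.267 adjusted over the 8 pairs). The ratios take no account of gene length, so their sign does not tell which chain was the more abundant. Per kilobase, Itga4 was below Itgb1 in WT, at 84.7 to 144.6 against 217.7 to 423.9 CPM. The Itgae to Itgb7 ratio was −2.61, −2.49 and −1.06 in WT and −0.07, 0.04 and −0.18 in the knockout, again with no overlap (difference 1.98, exact permutation p = 0.1, adjusted 0.267). The Itgax to Itgb2 ratio was −1.05, −0.53 and 0.40 in WT and 0.86, 0.61 and 0.64 in the knockout (difference 1.09, exact permutation p = 0.1, adjusted 0.267). In WT replicate 3 this ratio lay close to the knockout values although both of its chains were low.

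The other 5 pairs overlapped between genotypes. The differences were 0.55 for Itgal to Itgb2 (exact permutation p = 0.2) and 0.55 for Itgam to Itgb2 (exact p = 0.6). They were −1.89 for Itga4 to Itgb7 (exact p = 0.2), 0.06 for Itgav to Itgb1 (exact p = 0.8) and 1.38 for Itgav to Itgb8 (exact p = 0.3). None of the 8 reached an adjusted p under 0.05, which the design does not allow.

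**Figure D4:**
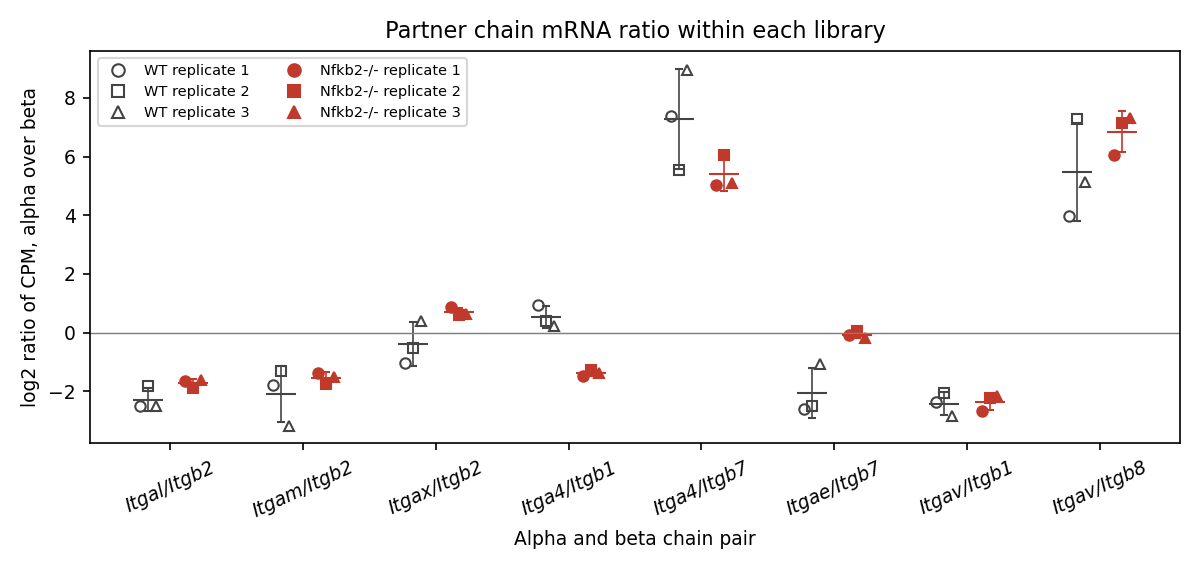
Log2 ratio of alpha to beta chain CPM within each library for 8 pairs that form known integrins, with open grey symbols for WT, filled red symbols for Nfkb2-/- and bars for mean ± SD of 3. The Itgax to Itgb2, Itga4 to Itgb1 and Itgae to Itgb7 ratios do not overlap between genotypes, with differences of 1.09, −1.91 and 1.98.

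Among the 3 alpha partners of β2, taken per kilobase, Itgax made up 54.4% and 54% in WT replicates 1 and 2, 85% in WT replicate 3 and 73% to 76.1% in the Nfkb2-/- libraries. Itgam made up 31.2%, 29.9% and 6.76% in WT and 14.2% to 15.8% in the knockout. WT replicate 3 thus lay beyond the knockout libraries for both shares, and the genotypes overlapped. The 3 alpha chains summed to 0.563, 0.815 and 0.990 of Itgb2 per kilobase in WT and to 1.54, 1.28 and 1.35 of it in Nfkb2-/- libraries, which did not overlap. This sum was computed after the values of its genes were seen.

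The genes whose profile over the 6 libraries was nearest to that of Itga4, by root-mean-square distance of centred log2 CPM among 10645 genes, were Serpinb6a (0.109), Rnf152 (0.149), Gm37578 (0.155), Eef1a2 (0.174) and Lgmn (0.182). Lgmn encodes legumain, a lysosomal protease. Serpinb6a had 106, 69.6 and 116 CPM in WT and 26.5, 34.3 and 28.3 CPM in the knockout.

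Of 17 other integrin chains, all of them tested, none was called by edgeR (4 had an unadjusted p under 0.05, DESeq2 called 2 and limma voom 1), while 11 had a mean under 5 CPM and 11 were highest in Nfkb2-/- replicate 1. Over all genes tested, 17.1% had an unadjusted p under 0.05 in edgeR, DESeq2 called 8.65% and limma voom 2.23%. Nfkb2-/- replicate 1 was the highest library for 31.2% of all genes tested and for 11.4% of those averaging 5 CPM or more. Itga6, the α6 chain of laminin receptors, was the most abundant, with 200, 173 and 337 CPM in WT and 77.9, 92.5 and 87.9 CPM in Nfkb2-/- libraries. The genotypes did not overlap, and the log2 fold change was −1.46 (SE 0.26, edgeR adjusted p = 0.0541). It passed the threshold with DESeq2 (adjusted p = 3.72e-05) and limma voom (0.0364), and in edgeR with total counts (0.0414), filterByExpr (0.0421), a minimum of 10 counts in every library (0.0348), no filter (6.95e-05), or without WT replicate 2 (0.0194) or WT replicate 3 (0.0414). Itgb3, a further partner of αv, named after its values were seen, had 6.71, 7.97 and 4.16 CPM in WT and 13.2, 13.6 and 10.6 CPM in the knockout without overlap (log2 fold change 0.98, edgeR adjusted p = 0.127). The next most abundant were Itga1, Itga5 and Itgb5, at −0.31, 0.15 and −0.84 on the log2 scale, and their libraries overlapped. Itgb5, an αv partner with 79.2, 64.5 and 28.2 CPM in WT and 30.7, 31.9 and 33.6 CPM in the knockout, was −1.16 and called without WT replicate 3 (SE 0.15, edgeR adjusted p = 0.0391), in a fit where Itga1 and Itga5 were at −0.18 and 0.23.

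Of 21 genes that regulate integrin activation, among them inhibitors such as Flna, Sharpin and Dok1, all were tested. EdgeR called 1, lower, while 4 had an unadjusted p under 0.05, DESeq2 called 2 and limma voom 1. The median log2 fold change was −0.15. The gene called by edgeR was Fyb, which encodes the adaptor ADAP that links receptor signals to integrin activation. It had 93.2, 70.1 and 78.6 CPM in WT and 24.8, 27.6 and 30.7 CPM in Nfkb2-/- libraries. The groups did not overlap (log2 fold change −1.54, SE 0.17, edgeR adjusted p = 0.0271). Leaving out WT replicate 1 or any Nfkb2-/- replicate ended this call, at adjusted p-values of 0.125, 0.0816, 0.163 and 0.156 in edgeR. The 4 most abundant of the list were Cytip, Flna, Stk4 and Rap1b. Cytip, a cytohesin-binding protein of leukocytes, had 2268, 1640 and 3301 CPM in WT and 1090, 1403 and 1334 CPM in the knockout. Its libraries did not overlap (log2 fold change −0.91, edgeR adjusted p = 0.166), and DESeq2 called it. Flna, Stk4 and Rap1b had log2 fold changes of −0.15, −0.57 and −0.04. Without WT replicate 3 the log2 fold changes were −0.61 for Cytip and 0.05, −0.27 and 0.05 for Flna, Stk4 and Rap1b.

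Of 30 genes of integrin signalling and the adhesion complex tested, edgeR called none, with a median log2 fold change of 0.13 (7 had an unadjusted p under 0.05, DESeq2 called 6 and limma voom 1). Syk, the kinase downstream of β2 integrins, had 663, 673 and 671 CPM in WT and 408, 427 and 399 CPM in Nfkb2-/- libraries, at −0.70 (SE 0.14, edgeR adjusted p = 0.0666). Its libraries did not overlap and were tight within each genotype, and DESeq2 and limma voom called it. Actn1, for α-actinin, had 371, 312 and 418 CPM in WT and 557, 542 and 494 CPM in the knockout (0.53, edgeR adjusted p = 0.170). It did not overlap either and was called by DESeq2. Zyx and Lims1 were at −0.27 and 0.49. Ilk, for integrin-linked kinase, was not tested, since it was listed at 1 to 12 counts per library. How the authors counted reads in shared exons is not given in the sources used here, so this count may not measure Ilk expression.

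**Figure D5:**
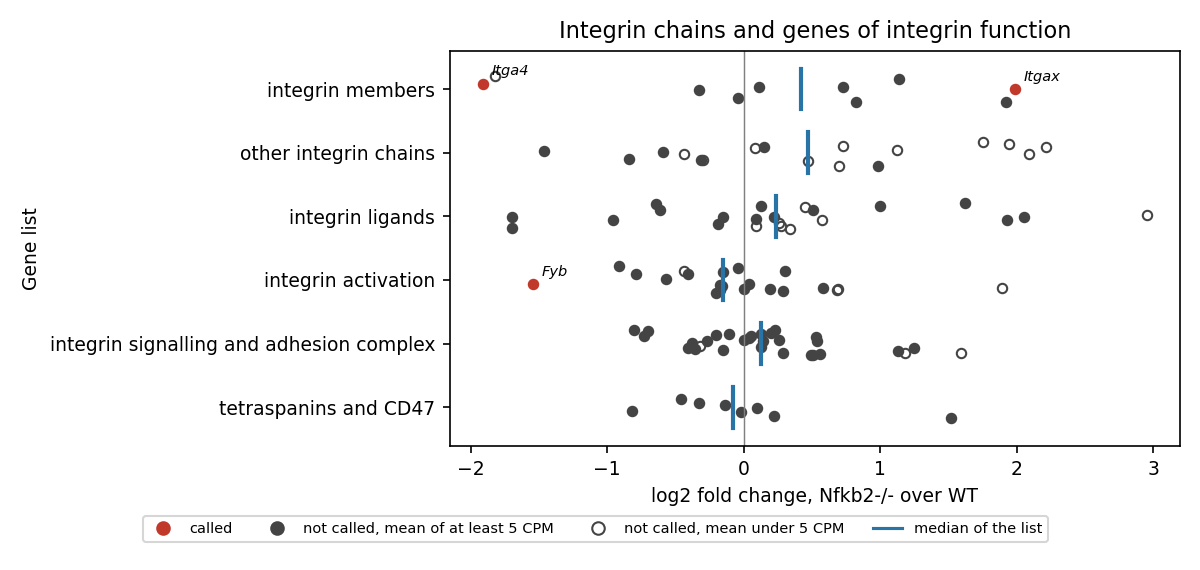
Log2 fold change of Nfkb2-/- over WT BMDCs for each tested gene of 6 lists of integrin chains and integrin function, with red for called genes, open symbols for a mean under 5 CPM over both genotypes and a blue line for the median of the list. The called genes are Itga4 and Itgax among the 10 members and Fyb among the activation genes, and the medians run from −0.15 to 0.47.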

How the data were processed

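PolyA RNA-seq libraries of unstimulated BMDCs, 3 WT and 3 Nfkb2-/-, were grouped by their labels. The deposited values are whole-number counts per Ensembl gene and library, made by the authors without normalization. The submitters' processing notes name HISAT2 and GRCm38 (mm10). The counting tool, annotation and use of strand are not given in the sources used here, so that counts of overlapping and antisense genes are uncertain. A deposited table joining the 6 libraries holds the same values. Named genes (GENCODE M21) with at least 50 counts over the 6 libraries were kept, 21849 in all, and IDs without a name, 1.01% to 1.75% of counts, stayed out of library sizes and tests.

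Genotypes were compared with edgeR 4.0.16 (R 4.3.3) by glmQLFit and glmQLFTest after TMM normalization, with no covariate, p-values being adjusted by Benjamini-Hochberg over all genes tested. The study's own tool, DESeq2 (1.42.0 here), served as an alternative. The standard error is the log2 fold change over the square root of F, and the common dispersion was 0.219. Ratios of chains used CPM + 0.1. P-values measure the spread between these 3 cultures per genotype. Alternatives were RLE or total-count scaling, DESeq2, limma 3.58.1 voom, other filters, an adjusted p under 0.1, a replicate block and leaving out each library. The gene lists without WT replicate 3 were added after the data were seen.

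Named are the 10 integrin genes, Nfkb2, exon-overlapping genes, the 5 profiles nearest to the integrin gene of smallest p, and every called gene and the 4 most abundant of each other integrin list. The integrin genes and lists were chosen with earlier results of these data known, and the promoter motifs were chosen for this description.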

Additional observations from a re-analysis of the deposited data

How the results depend on the processing

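Itga4 and Itgax kept their direction under all 14 alternatives and their call under 9 of them. Genes called numbered 248 over all genes and 2 among the integrin set. They numbered 808 at an adjusted p under 0.1, 1890 with DESeq2, 488 with limma voom, 397 with filterByExpr, 1625 without a filter (5 of the set, adding Itgal, Itgae and Itgb8) and 459 with at least 10 counts in every library. With 1 library left out the counts ran from 0 to 1248 over all genes and 0 to 4 for the set. The replicate block left 0 genes called by edgeR and 0 of the set, with 3331 genes at an unadjusted p under 0.05, and gave adjusted p-values of 0.0729 for Itga4 and 0.0616 for Itgax. The labels do not say whether replicate numbers pair the samples. Deviations from the group means correlated at 0.262, 0.148 and 0.0224 for numbers 1 to 3, and WT replicate 2 correlated best with Nfkb2-/- replicate 3 (0.164). Correlations over so few libraries cannot settle the pairing. Signs turned for log2 values between −0.33 and 0.11. Itgb1 gave 0.07 with total counts, 0.02 with limma voom and 0.02 with the replicate block, and −0.22 to 0.32 with 1 library left out. Itgb7 gave 0.01 with limma voom and with the replicate block and −0.76 to 0.50 with 1 left out, and Itgav −0.05 to 0.29. Rap1b gave 0.03 with total counts, and −0.18 to 0.15 with 1 left out. Flna ran from −0.25 to 0.05 with 1 library left out (0.05 without WT replicate 3). The Itgav to Itgb1 ratio ran from −0.15 to 0.24, negative where WT replicate 3 or Nfkb2-/- replicate 2 or 3 was left out. The cause was not tested. Itgae and Itgb8 rest on as few as 54 and 41 counts in a library, which limits their precision.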

Other observations

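The ligands of integrins and the membrane proteins that associate with them were listed as well. Of 22 ligands and latent TGF-β carriers tested edgeR called none (9 had an unadjusted p under 0.05, DESeq2 called 6 and limma voom 1), and 7 were higher and 3 lower in Nfkb2-/- BMDCs without overlap of the libraries (12.7% and 12% of all genes tested), with a median log2 fold change of 0.24. Tgfb1, whose latent product is bound by αv integrins, had 151, 175 and 119 CPM in WT and 201, 206 and 226 CPM in Nfkb2-/- libraries (0.51, edgeR adjusted p = 0.207). Every knockout library lay above every WT library. Nrros, a carrier of latent TGF-β in myeloid cells, had 188, 183 and 196 CPM in WT and 159, 173 and 181 CPM in the knockout (−0.15, edgeR adjusted p = 0.619). Fn1, for fibronectin, which α4β1 binds, had 366, 380 and 51.2 CPM in WT and 59.7, 92.1 and 94 CPM in the knockout (−1.70, edgeR adjusted p = 0.246), and WT replicate 3 was the lowest of all 6. Without that library Fn1 was −2.18 and called (SE 0.23, edgeR adjusted p = 0.0242), and DESeq2 called it on all 6 (adjusted p = 0.0399). Lrrc32 of the same list, named after its values were seen, was at 2.05 on all 6 libraries (edgeR adjusted p = 0.152). Without WT replicate 3 Lrrc32 was at 1.58 and called (SE 0.25, edgeR adjusted p = 0.0498), and DESeq2 called it on all 6. Icam1, a ligand of the β2 integrins, had 150, 118 and 277 CPM in WT and 117, 122 and 118 CPM in the knockout (−0.61, edgeR adjusted p = 0.372), and here WT replicate 3 was the highest. Without it the value was −0.16. Cdh1, which encodes E-cadherin, the ligand of CD103, and was chosen after its values were seen, had 35.2, 62.8 and 19.7 CPM in WT and 132, 144 and 173 CPM in the knockout, with no overlap (1.93, edgeR adjusted p = 0.0701, and 1.62 without WT replicate 3). DESeq2 and limma voom called Cdh1 on all 6 libraries.

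Of 8 genes for tetraspanins and CD47, which associate with integrins in the membrane, edgeR and limma voom called none, while 1 had an unadjusted p under 0.05 and was called by DESeq2, Cd63. Cd63 had 294, 220 and 306 CPM in WT and 150, 150 and 163 CPM in Nfkb2-/- libraries, without overlap (−0.82, edgeR adjusted p = 0.0717). Cd53 had 266, 426 and 44.7 CPM in WT and 452, 784 and 870 CPM in the knockout (1.52, edgeR adjusted p = 0.332), and its lowest library was again WT replicate 3, without which it was 1.03. Cd47 and Cd81 were at −0.46 and 0.22, and at −0.26 and 0.31 without WT replicate 3.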
